A study of Mus musculus with 2 samples.

Results

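The interleukin 1 (IL-1) family genes described here are the agonists Il1a and Il1b, the receptor antagonist Il1rn, the cytokine gene Il18 with the gene of its soluble binding protein Il18bp, and the alarmin gene Il33. They were taken by gene symbol from the transcript names of the deposited tables and linked to the gene tables by gene identifier. All 6 were found, among 55536 named genes, of which 22015 are protein-coding and encoded in the nucleus.

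Both libraries came from primary macrophages grown from bone marrow of mouse strain C57BL/6J and treated with 100 ng/ml Lipid A, the Tlr4-binding part of bacterial lipopolysaccharide, for 120 min. RNA of the nucleoplasmic fraction (nucleus in another label field) was depleted of ribosomal RNA and sequenced as total RNA, at a size range of 250 to 400. The libraries are biological replicates 1 and 2 of 1 group, with RNA inputs of 1 µg and 500 ng, so input and replicate cannot be told apart. They have separate biosample entries and 1 shared donor entry, sex and age were not collected, and no untreated culture was analysed here. A level is therefore not an induction, nothing could be tested between groups, and the spread between the libraries may be technical.

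IL-1 family cytokines carry alarm signals from damaged or infected cells. IL-1 alpha and IL-1 beta bind the same receptor, the antagonist encoded by Il1rn occupies that receptor without signalling, and the precursors of IL-1 beta and IL-18 are cut by caspase 1 in inflammasomes before release. IL-33 acts through the receptor encoded by Il1rl1 and is made mainly by epithelial, endothelial and stromal cells, while macrophages are a main source of IL-1 beta.

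The start regions of the 3 most abundant members are shown first, because their promoters belong to genes of similar level but unlike sequence. Each is the stretch of up to 250 bases before a RefSeq transcription start (build GRCm38.p6, which is mm10), cut back where an annotated exon begins, in the direction of transcription. Capitals mark matches to 5 motifs searched on both strands: the TATA box, AP-1, C/EBP, NF-kB and ISRE. The letters searched were TATAAA for the first, TGANTCA for AP-1, and TTNNNCAA for C/EBP. For NF-kB they were GGGNNNNNCC and for ISRE GAAANNGAAA, where N is any base. The C/EBP matches shown lie on the opposite strand and read TTGNNNAA, and no matches shown overlap. The Il1a stretch is chr2:129309973-129310222 (minus strand) and the Il1b stretch chr2:129371140-129371389 (minus strand). The stretches of Il1rn are chr2:24336610-24336852 for its upstream start and chr2:24345041-24345287 for its downstream start, both on the plus strand.
Il1a: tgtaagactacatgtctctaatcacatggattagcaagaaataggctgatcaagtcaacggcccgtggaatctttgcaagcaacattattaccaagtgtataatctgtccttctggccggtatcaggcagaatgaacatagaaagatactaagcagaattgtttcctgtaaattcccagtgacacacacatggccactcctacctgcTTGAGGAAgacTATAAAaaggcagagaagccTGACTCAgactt
Il1b: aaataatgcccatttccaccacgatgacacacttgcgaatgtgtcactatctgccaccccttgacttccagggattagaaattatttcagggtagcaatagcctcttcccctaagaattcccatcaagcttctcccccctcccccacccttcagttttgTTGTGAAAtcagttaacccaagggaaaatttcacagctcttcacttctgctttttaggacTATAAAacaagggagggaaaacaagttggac
Il1rn upstream: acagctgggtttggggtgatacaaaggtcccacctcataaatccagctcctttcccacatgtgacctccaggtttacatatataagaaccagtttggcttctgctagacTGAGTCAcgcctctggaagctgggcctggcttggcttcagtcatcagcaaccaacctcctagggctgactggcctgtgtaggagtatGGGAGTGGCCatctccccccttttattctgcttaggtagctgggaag
Il1rn downstream: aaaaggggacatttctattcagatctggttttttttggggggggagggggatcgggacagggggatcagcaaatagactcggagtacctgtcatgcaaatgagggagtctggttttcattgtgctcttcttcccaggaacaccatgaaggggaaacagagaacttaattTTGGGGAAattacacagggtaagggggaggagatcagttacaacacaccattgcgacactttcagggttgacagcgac

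The agonist promoters each held a TATAAA match close to the start, whose first base lay at -32 in Il1a and at -31 in Il1b, counted from the start site. Neither Il1rn stretch held one. Among all 32851 promoters of the RefSeq table, 12.4% held TATAAA in their 250 bases. Both agonist promoters also held a C/EBP match, at -43 in Il1a and -91 in Il1b, as did the downstream Il1rn stretch at -81, a motif found in 33.3% of promoters. AP-1 matches lay at -12 in Il1a and at -141 before the upstream Il1rn start (6.75% of promoters), and the upstream Il1rn stretch had an NF-kB match at -54 (45.8%). A further RefSeq start of Il1rn, close to the downstream one, had an NF-kB match at -51 and a C/EBP match at -161. Its stretch runs to chr2:24345347, past chr2:24345310, where the transcript Il1rn-201 described below begins. That NF-kB match therefore lies inside the first exon of Il1rn-201. The upstream Il33 start had TATAAA at -203, and the downstream Il33 start had it at -29 with C/EBP matches at -85 and -49. Il18 had a TATA match on the opposite strand at -175 and a C/EBP match at -128. That Il18 start, chr9:50554700, lies near the start of Il18-203 (chr9:50554827). It is far upstream of chr9:50575273, where Il18-202 begins, the leading transcript of the alignment-based table. Il18bp had a C/EBP match at -49, in a stretch inside the first exon of Il18bp-202. None of the stretches of the 6 genes held the ISRE letters, which 2.98% of promoters hold. A match is a description of letters and not of a bound site.

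Il1a, Il1b and Il1rn RNA was abundant in both libraries, Il18 and Il18bp RNA was intermediate, and Il33 RNA was near the limit. Levels are given in TPM, transcript abundance divided by length and scaled to 1 total per library, so they can be compared between genes. In all, 5 of the 6 members reached 1 TPM in both libraries, against 20.2% of all named genes and 40.4% of nuclear-encoded protein-coding genes. The median of the 6 mean levels was 81.4 TPM, and the median over all detected protein-coding genes was 9.045 TPM. The members together took 7862 estimated counts in replicate 1 and 13940 in replicate 2, which is 0.0754% and 0.127% of the counts of nuclear-encoded protein-coding genes.

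**Figure D1:**
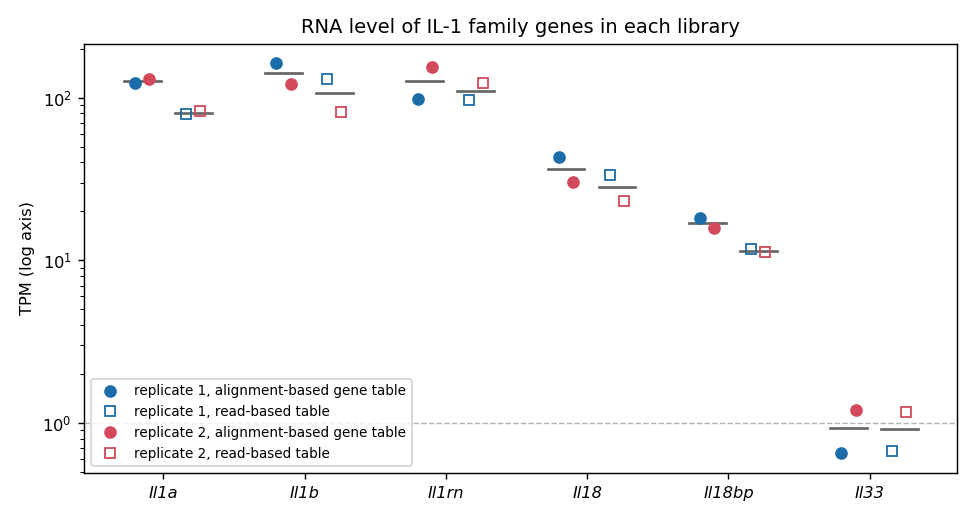
TPM (log axis) of each gene in replicates 1 and 2, in the alignment-based gene table (filled circles) and the read-based table (open squares); grey bars are means of 2 libraries and the dashed line is 1 TPM. The first 3 genes lie within 98.7 to 162 TPM in the gene table, Il18 and Il18bp lie between 15.8 and 42.9 TPM, and Il33 lies at 0.65 and 1.21 TPM.

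Il1b (ENSMUSG00000027398.13, mm10 chr2:129364570-129371139, minus strand), the precursor gene of the main secreted agonist, stood at 162 TPM in replicate 1 and 121 TPM in replicate 2, from 2210 and 2772 counts. Its mean was the highest of the 6, at 141.8 ± 28.9 TPM (SD, n = 2, here and below). It ranked 283 among the 22015 protein-coding genes. Il1a (ENSMUSG00000027399.1, chr2:129299610-129309972, minus strand), whose product is active without cleavage, stood at 123 TPM in replicate 1 and 129 TPM in replicate 2, from 3043 and 4830 counts. Its mean of 126 ± 4.54 TPM gave rank 335. The agonist genes are neighbours on the same strand, with 54597 bases between them and no protein-coding gene in the gap.

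Il1rn (ENSMUSG00000026981.15, chr2:24336853-24351494, plus strand), the antagonist gene, stood at 98.7 TPM (1820 counts) in replicate 1 and 155 TPM (5391 counts) in replicate 2. Its mean was 126.8 ± 39.6 TPM, at rank 333, and its rank moved from 606 in replicate 1 to 197 in replicate 2. The values of Il1a, Il1b and Il1rn overlapped, so their order is not resolved by these libraries. Replicate 1 gave the order Il1b, Il1a, Il1rn, and replicate 2 gave the order Il1rn, Il1a, Il1b. The read-based table put the same genes at 79.2 and 82.7 TPM (Il1a), 131 and 81.5 TPM (Il1b), and 96.8 and 123 TPM (Il1rn), in replicates 1 and 2.

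Il18 (ENSMUSG00000039217.13, chr9:50554827-50581840, plus strand), which encodes an inducer of interferon gamma in lymphocytes, stood at 42.9 TPM in replicate 1 and 30.5 TPM in replicate 2, from 310 and 341 counts. Its mean of 36.7 ± 8.78 TPM gave rank 1451. Il18bp (ENSMUSG00000070427.4, chr7:102014885-102018690, minus strand), whose product captures IL-18 outside the cell, stood at 18.3 TPM in replicate 1 and 15.8 TPM in replicate 2, from 458 and 546 counts. Its mean was 17.1 ± 1.75 TPM, at rank 2895. Both were higher in replicate 1 in TPM. The values of Il18, Il18bp and Il33 overlapped neither each other nor those of the 3 more abundant genes, so these 3 steps in the order held in each library.

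Il33 (ENSMUSG00000024810.16, chr19:29925114-29960718, plus strand) stood at 0.65 TPM in replicate 1 and 1.21 TPM in replicate 2, from 21 and 60 counts. Its mean was 0.93 ± 0.396 TPM, at rank 9675. It was above the 3 counts taken as the limit of a count of 0 in both libraries, but reached 1 TPM only in replicate 2. The authors' posterior mean, which carries a prior, put it at 1.96 and 1.88 TPM with overlapping bounds of 0.719 to 3.56 and 1.14 to 2.80, whose level is not given in the sources used here. Of the 6 genes, Il33 therefore had the least certain level.

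The antagonist stood closer to its agonists in replicate 2 than in replicate 1. The ratio of Il1rn TPM to the summed TPM of Il1a and Il1b was 0.346 in replicate 1 and 0.617 in replicate 2, and 0.461 and 0.750 in the read-based table. Il1b over Il1a went the other way, at 1.32 and 0.938 (read-based 1.65 and 0.986). Il18bp over Il18 was 0.427 and 0.520 (read-based 0.349 and 0.490). The Il1rn ratio and the Il18bp ratio were thus below 1 in both libraries and both tables. A ratio of nuclear RNA is not a ratio of secreted protein.

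The TPM of most genes was lower in replicate 2, with a median log2 ratio of (TPM + 1) of -0.50 over the 13399 genes counted at least 10 times in each library. Ratios of replicate 2 over replicate 1 are given relative to that median, on the log2(TPM + 1) scale, which understates low genes. The brackets hold 95% exact binomial intervals of the ratio of counts, shifted to lie around the relative ratio. Their width is thus that of the count ratio, which for a low gene such as Il33 differs from the log2(TPM + 1) scale. They treat reads as independent molecules, which they are not, and leave out errors in assigning reads. They therefore cover counting error only. All 6 members passed the limit of 10 counts. The relative log2 ratio was 1.14 for Il1rn (1.07 to 1.22), 0.92 for Il33 (0.18 to 1.71), 0.57 for Il1a (0.51 to 0.64), 0.30 for Il18bp (0.12 to 0.49), 0.09 for Il1b (0.00 to 0.17) and 0.02 for Il18 (-0.20 to 0.25).

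Il1rn was the 1 member more than 2-fold apart between the libraries. Of the 13399 genes, 6.16% were more than 2-fold apart in either direction, 3.32% of them higher and 2.84% lower in replicate 2, and 2.45% of nuclear-encoded protein-coding genes had a higher ratio than Il1rn. Among those protein-coding genes, 3.71% were more than 2-fold higher in replicate 2. Without a filter on low counts the Il1rn value was 0.95, and in the read-based table it was 0.84, so the call ended there. With counts scaled by TMM it was 1.61. Il33 passed 2-fold under some scalings, with 1.51 under TMM. All 6 members lay above 0, as did 50.0% of genes, but Il1b (-0.18) and Il18 (-0.03) lay below 0 in the read-based table, and also without the filter (-0.11 and -0.17). In TPM itself 3 of the 6 genes were higher in replicate 2.

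**Figure D2:**
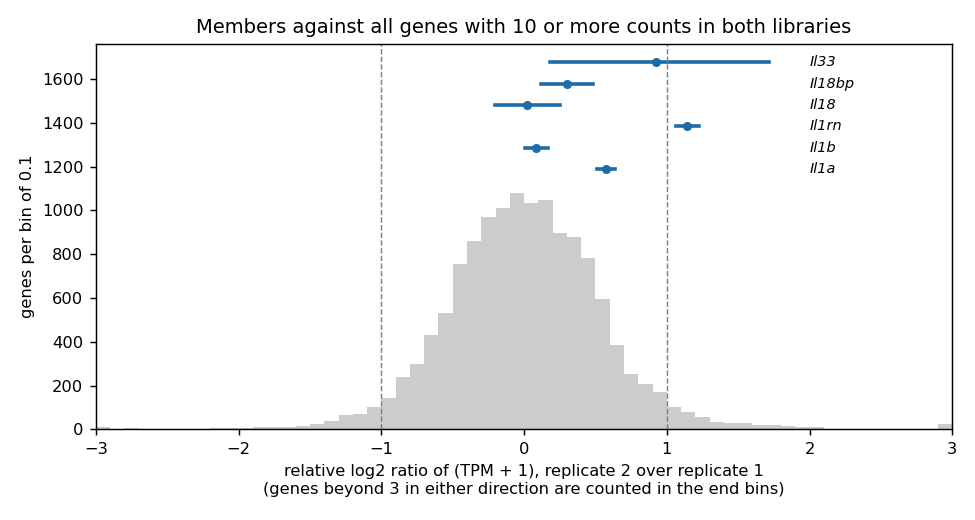
Number of genes (grey bars, bins of 0.1) by relative log2 ratio of (TPM + 1), replicate 2 over replicate 1, for the 13399 genes that passed the limit on counts; points and lines are the 6 members with their 95% counting intervals, at heights of no meaning. Dashed lines mark 2-fold, which only the Il1rn point passes, while Il18 and Il1b lie near 0.

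Several other measures moved with the replicate. Macrophage markers summed to 938 TPM in replicate 1 and 2004 TPM in replicate 2, of which Lyz2 alone held 403 and 1316 TPM. All 8 were detected. Relative to the median gene, 4 (Lyz2, Cd68, Csf1r, Itgam) were more than 2-fold higher in replicate 2, against 3.32% of genes. In TPM, Adgre1 (219 and 168), Mertk (81.7 and 56.7) and Spi1 (37.45 and 20.31) were lower in replicate 2, and Fcgr1 was 21.1 and 23.9. Relative to the median gene, their log2 ratios were 0.12 for Adgre1, -0.02 for Mertk, -0.35 for Spi1 and 0.67 for Fcgr1. Mitochondrially encoded genes took 0.424% and 8.70% of counts. The 7 fibroblast and stromal markers had 4366 counts in replicate 1 and 23 in replicate 2, with Col3a1, Dcn and Lum at 0 in replicate 2, which is the opposite direction to Il33. The 8 neutrophil markers, of a cell that also makes Il1b and Il1rn, had 27 and 52 counts with Ly6g and Camp at 0 in both. Ltf, the only 1 that passed the limit on counts, had 10 and 30 counts. Its relative log2 ratio of 1.77 was more than 2-fold higher in replicate 2, as for 3.32% of genes. In the read-based table Ltf stood at 0.81 and 0.62 TPM. S100a8 had 1 and 8 counts, and Ngp had 10 and 6. The 6 dendritic cell markers had 218 and 145 counts, the 5 endothelial markers 549 and 546 (1 detected, Kdr), the 5 mast cell markers 107 and 65 (3 at 0 in both), and the 5 epithelial markers 5 and 1 (4 at 0 in both). Their part in the differences of Il1rn and Il33 was not tested. In bulk RNA fewer cells of a type and less RNA per cell cannot be told apart.

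Counts and TPM gave unlike differences for Il1rn, whose estimated length also differed between the libraries. TPM is also scaled over all entries, and nuclear-encoded protein-coding genes held 29.7% of TPM in replicate 1 and 20.8% in replicate 2. The counts of Il1rn were 2.96-fold higher in replicate 2 and its TPM 1.57-fold higher. Its effective length, the mean over its transcripts weighted by their abundance, was 1309 bases in replicate 1 and 1640 bases in replicate 2. For Il1b the effective length was 967 and 1075 bases, with counts 1.25-fold and TPM 0.748-fold. Il1a, which has 1 annotated transcript (Il1a-201), kept 1757 bases in each, with counts 1.59-fold and TPM 1.05-fold. For Il1a the count and TPM ratios therefore differed at an equal length. The length of a gene in these tables thus follows which of its transcripts the reads were given to, as described next.

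In Il1b the spliced, protein-coding transcript led, and a transcript that retains an intron held most of the rest. Il1b-201 held 74.7% of the gene's TPM in replicate 1 and 90.5% in replicate 2 (121 and 109.9 TPM). Il1b-203, annotated retained_intron, held 24.3% and 9.19% (39.5 and 11.2 TPM, from 262 and 112 counts). By counts its share was 11.9% and 4.04%. The authors' bounds of its TPM, 32.0 to 40.9 and 8.69 to 12.6, did not overlap. Il1b-203 keeps the intron between exons 2 and 3, 532 bases at chr2:129369752-129370283, and ends shortly inside exon 3. The junction that tells the transcripts apart is shown from exon 2 onward (GENCODE M21, mm10, minus strand), with capitals for exon 3 in Il1b-201 (chr2:129369732-129370303, intron left out) and for the intron in Il1b-203 (chr2:129370264-129370303).
Il1b-201: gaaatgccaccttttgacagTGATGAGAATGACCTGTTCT
Il1b-203: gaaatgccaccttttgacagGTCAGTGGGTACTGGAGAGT

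The intron sequence opens with GT, the usual first bases of an intron, here left in the RNA. The read-based table gave Il1b-203 a similar share, 21.8% in replicate 1 and 10.6% in replicate 2. It differed for Il1b-202, a processed_transcript over the later exons, with 23.4% and 9.18% against 0.99% and 0.30% in the alignment-based table, and gave Il1b-201 54.8% and 80.2%. Relative to the median gene, Il1b-203 was lower in replicate 2 (log2 ratio -1.23) and Il1b-201 was higher (0.36). Il1b-201 over Il1a-201 was 0.985 in replicate 1 and 0.849 in replicate 2, and 0.906 and 0.790 in the read-based table. Il1a-201 is the only annotated Il1a transcript, so unspliced Il1a RNA could not be set apart from it.

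Il1b had a lower retained-intron share than most genes that have an annotated retained intron. Among the 3788 protein-coding genes that have such a transcript and reached 5 TPM in each library, the median retained-intron share was 39.3% in replicate 1 and 33.0% in replicate 2. Of these genes, 73.9% and 88.3% had a higher share than Il1b. The read-based medians were 41.6% and 36.6%, again above the Il1b values. The lower share in replicate 2 was common, seen in 72.3% of the genes, with a median difference of -4.78 percentage points. Il1b differed by -15.1 points, and 13.6% of genes had a larger fall.

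Il1rn RNA was divided among a secreted form, an intracellular form and a noncoding transcript. Il1rn-201 held 41.2% of the gene's TPM in replicate 1 and 64.9% in replicate 2 (40.7 and 100.5 TPM, from 1014 and 3776 counts). Il1rn-204, which starts 8457 bases upstream of Il1rn-201, held 13.1% and 16.5% (13.0 and 25.6 TPM, from 413 and 1228 counts). Il1rn-206, annotated processed_transcript, held 40.1% and 16.0% (39.6 and 24.7 TPM, from 234 and 220 counts). Its second exon, 412 bases at chr2:24345943-24346354, lies inside the first intron of Il1rn-201. Both coding forms were higher in replicate 2, and Il1rn-206 was lower in TPM with nearly equal counts. Division by length raises the share of this short transcript, which took 12.8% and 4.09% of the gene's counts.

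The coding transcripts differ at their 5′ ends, which decide whether a signal peptide is encoded, a property for which the secreted and intracellular forms of the antagonist are known. The start of each reading frame is shown (GENCODE M21, mm10, plus strand, introns left out), with capitals for the bases before the stretch that all 3 share. Il1rn-201 spans chr2:24345453-24345539 and has 67 bases of its own, Il1rn-202 spans chr2:24345350-24345539 and has 19, and Il1rn-204 spans chr2:24336983-24345539 and has 10.
Il1rn-201: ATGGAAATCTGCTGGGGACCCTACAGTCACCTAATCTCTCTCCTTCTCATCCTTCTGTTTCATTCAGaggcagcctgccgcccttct
Il1rn-202: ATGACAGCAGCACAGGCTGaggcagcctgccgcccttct
Il1rn-204: ATGGCTTCAGaggcagcctgccgcccttct

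The upstream form was the lesser one in both libraries. Il1rn-201 over Il1rn-204 was 3.14 in replicate 1 and 3.92 in replicate 2, and 4.10 and 5.92 in the read-based table. Transcripts from the upstream start, coding or not, held 17.9% and 18.6% of the gene's TPM, and 16.3% and 15.2% in the read-based table. The share of the upstream start thus differed less between the libraries than the level of the gene did. Coding Il1rn RNA summed to 54.5 TPM and 126.9 TPM, and over Il1a-201 plus Il1b-201 this gave 0.223 and 0.530 (read-based 0.282 and 0.591).

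**Figure D3:**
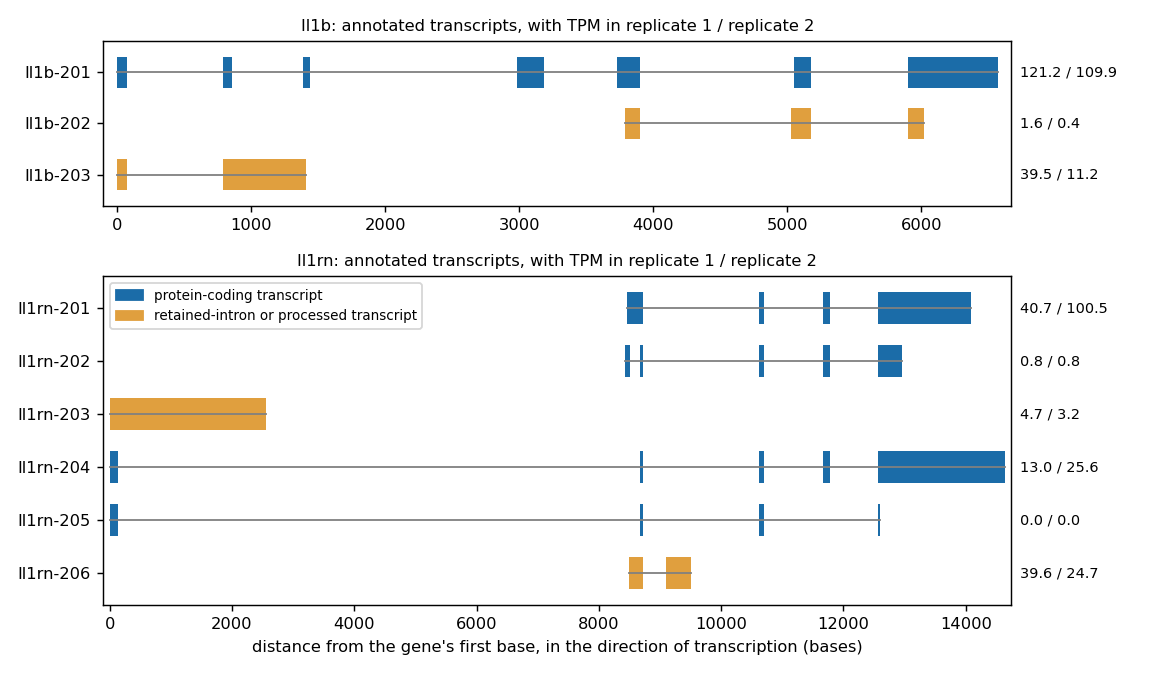
Exons (boxes) and introns (lines) of the annotated Il1b and Il1rn transcripts by distance in bases from the gene's first base, with the TPM of each in replicate 1 and replicate 2 of the alignment-based table at the right. Orange transcripts are annotated as retained_intron or processed_transcript: Il1b-203 covers the intron after exon 2, and Il1rn-206 reads 39.6 and 24.7 TPM beside 40.7 and 100.5 TPM for Il1rn-201.

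Il1b-203, Il1rn-206, Il1rn-203 (retained_intron, 2417 bases of the first intron of Il1rn-204) and Il18bp-202 (897 bases in introns of Il18bp-203) each had a lower share in replicate 2 in both tables. These 4 were picked after the values were seen. Other transcripts also hold bases that another transcript of the gene removes, and some of these had a higher share in replicate 2, as did Il1rn-201, whose first exon covers an intron of Il1rn-202. The difference was -15.1 points for Il1b-203, -24.1 for Il1rn-206, -2.69 for Il1rn-203 and -16.0 for Il18bp-202. In relative log2 ratio, Il1rn-206 stood at -0.16 and its spliced partner Il1rn-201 at 1.78, Il1rn-203 at 0.06 and Il1rn-204 at 1.43, and Il18bp-202 at -0.29 and Il18bp-203 at 0.68. The higher TPM of Il1rn in replicate 2 thus lay in Il1rn-201 and Il1rn-204. In the read-based table Il1rn-201 went from 27.8 TPM in replicate 1 to 70.4 TPM in replicate 2, and Il1rn-206 from 51.5 to 33.5 TPM. The retained-intron share was lower in replicate 2 in 72.3% of genes with such a transcript, so this direction was the common one for Il1b-203 and Il1rn-203. Il1rn-206 is annotated processed_transcript and Il18bp-202 protein-coding, and no such share was computed for those classes.

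Il18bp RNA was divided between transcripts that are both annotated as coding. Il18bp-203 held 57.2% in replicate 1 and 75.5% in replicate 2 (read-based 51.8% and 59.7%). Il18bp-202 held 40.5% and 24.5% (read-based 45.1% and 29.0%). It begins with a first exon of 1404 bases at chr7:102017287-102018690 that runs through introns of Il18bp-203. Both tables gave the same leading transcript.

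For Il18 the tables placed the reads on different transcripts. The alignment-based table gave Il18-202 84.3% in replicate 1 and 75.8% in replicate 2, and listed Il18-201 at 0 in both. The read-based table gave Il18-202 16.0% and 1.09e-06%, and Il18-201 29.1% and 38.7%. Il18-203 held 12.9% and 13.1% (read-based 31.7% and 24.0%) and Il18-204 held 2.85% and 11.1% (read-based 23.2% and 37.3%). Il18-201 and Il18-202 are 702 bases each and differ only in which of 2 exons of 12 bases they use, at chr9:50577537-50577548 and chr9:50576694-50576705. Both are shown with 15 bases on each side (GENCODE M21, mm10, plus strand, within chr9:50575334-50577775), the 12 bases in capitals.
Il18-201: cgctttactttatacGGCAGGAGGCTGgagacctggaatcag
Il18-202: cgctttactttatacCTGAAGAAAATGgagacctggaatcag

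Only fragments that cross these 12 bases can tell Il18-201 from Il18-202, so the share of either is uncertain. Il18-203 and Il18-204 begin at other first exons and use the exon of Il18-202, and Il18-203 also skips an exon of 134 bases at chr9:50579287-50579420. The level of the gene depended less on the table, at 33.5 and 23.0 TPM in the read-based one. Il33 shares rest on few counts. Il33-201, from the downstream start, held 98.5% and 100% in the alignment-based table, but 48.9% and 42.9% in the read-based table, which gave Il33-204 51.1% and 23.2%, Il33-203 0% and 18.7%, and Il33-202 0% and 15.1%. The starts of Il33-201 and Il33-202 lie 20676 bases apart.

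**Figure D4:**
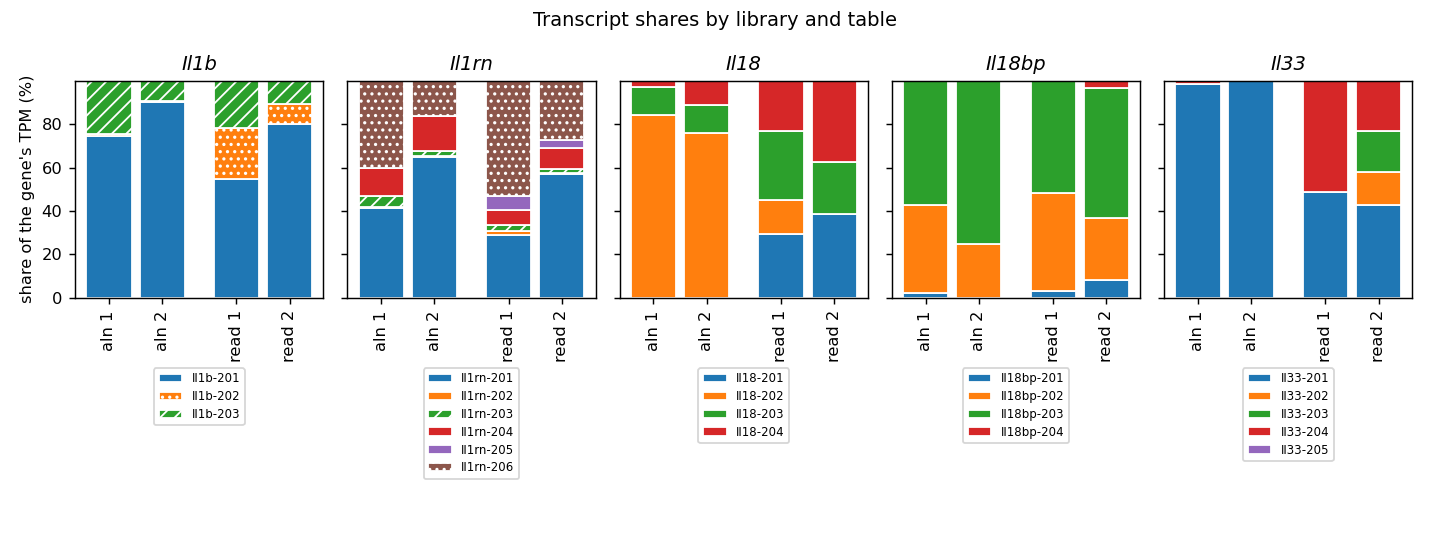
Share of each gene's TPM (percent) held by its annotated transcripts, for replicates 1 and 2 in the alignment-based table (aln) and the read-based table (read); hatched bars are retained_intron and dotted bars processed_transcript. Hatched and dotted parts of Il1b and Il1rn are smaller in replicate 2 in both tables, and the Il18 bars differ between the tables, with Il18-202 at 84.3% and 75.8% against 16.0% and 1.09e-06%.

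Genes on the opposite strand overlap several members, and whether counting used strand is not given in the sources used here, so reads of antisense partners cannot be told apart. Gm14023 runs against Il1a, with 222 bases of shared exon sequence, and stood at 43.5 and 21.8 TPM in replicates 1 and 2. The relative log2 ratio of Gm14023 was -0.46, opposite in sign to that of Il1a. Il1bos runs against the start of Il1b and shares 25 exon bases with it, all within the intron kept by Il1b-203, at 4.31 and 2.52 TPM. Tex12 and Bco2 overlap Il18 without shared exon bases (13.2 and 6.35 TPM for Tex12, 1.57 and 0.69 TPM for Bco2), and Numa1 shares 80 exon bases with Il18bp (21.3 and 13.5 TPM).

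The nearest protein-coding genes stood at levels from 0 counts to values close to those of a member. Next to Il1a, Ckap2l stood at 8.88 TPM in replicate 1 and 1.34 TPM in replicate 2, and beyond Il1b, F830045P16Rik had 1 count in replicate 1 and 0 in replicate 2. Beside Il1rn, Il1f10, another family gene, had 0 counts in both, which allows up to 3 counts each, and Psd4 stood at 72.5 and 33.1 TPM. The read-based table gave Il1f10 4 counts in replicate 1 and 0 in replicate 2. Pts (7.14 and 7.48 TPM) and Sdhd (6.30 and 5.99 TPM) flank Il18. Lrrc51 (0 and 0.33 TPM) and Rnf121 (18.2 and 13.4 TPM) flank Il18bp, and Rnf121 was close to its 18.3 and 15.8 TPM. Il1a and Il1b are neighbours of each other, with the levels given above. Ranbp6 (2.31 and 1.67 TPM) and Trpd52l3 (0 counts in both) flank Il33.

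The protein-coding genes nearest in level over the 2 libraries, by Euclidean distance in log2(TPM + 1), were Cept1 (0.09) and Cd180 (0.15) for Il1a, B4galt5 (0.04) and Gbp2 (0.06) for Il1b, and Hspa5 (0.10) and Tlr2 (0.15) for Il1rn. They were Entr1 (0.01) and Il10 (0.03) for Il18, Gnai3 (0.03) and Capn7 (0.05) for Il18bp, and Cdkn2aipnl and Zfp455 (0.03 each) for Il33. With 2 libraries, nearness says only that 2 values were alike.

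Other ligands of the family and most of its receptors were low, while nearly all listed genes that mature and relay IL-1 family signals were detected, over a wide range of levels. For comparison, 40.4% of nuclear-encoded protein-coding genes were detected. Of genes counted at least 10 times in each library, 6.16% were past 2-fold. Of 5 further ligand genes (Il36a, Il36b, Il36g, Il36rn and Il1f10) none reached 1 TPM in both libraries. Il36g was the highest, with 3 counts in replicate 1 and 1 in replicate 2, followed by Il36rn with 1 and 0, and the other 3 had 0 in both. The read-based table put Il36g at 5.67 and 2.61 TPM, so its level depended on the table. That table put Il1f10 at 0.46 and 0 TPM.

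Of 10 receptor genes, 2 were detected in both libraries. The shared accessory chain gene Il1rap, which IL-1 and IL-33 receptors need to signal, stood at 3.14 TPM in replicate 1 and 5 TPM in replicate 2, from 126 and 332 counts. Its relative log2 ratio of 1.04 was past 2-fold, as for Il1rn, but that of Il1rap was 0.89 in the read-based table and 0.84 without the filter on low counts, which ended its call. The other 3 receptor genes counted at least 10 times in each library were not past 2-fold, although Il1rl2 was at -1.04 with TPM over nuclear-encoded protein-coding genes and at -1.18 with a pseudocount of 0.1. Il18rap, the IL-18 accessory chain gene, stood at 3.44 and 1.96 TPM, and Il1r1, the signalling receptor of the agonists, at 1.81 and 0.91 TPM. Il1rl1, the IL-33 receptor gene, had 4 and 6 counts, and Il1r2, the decoy receptor gene, 4 and 5, both chosen after their values were seen. The agonists and the antagonist were thus far above the RNA of their receptor in the same libraries. The read-based table put Il18rap at 9.50 and 5.58 TPM, Il18r1 at 4.71 and 2.75 TPM and Il1rapl2 at 2.83 and 3.65 TPM, against 0.05 and 0.04 TPM for Il18r1 and 0 for Il1rapl2 in the gene table.

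Of 13 genes of maturation and release, 12 were detected, with a median of 39.8 TPM and a median relative log2 ratio of -0.11, against 0 for all genes. Casp4, the inflammatory caspase that senses cytosolic lipopolysaccharide, stood at 397 TPM in replicate 1 and 292 TPM in replicate 2. Gsdmd, whose product forms the pore through which IL-1 beta leaves, stood at 196 and 128 TPM, and the DNA sensor gene Aim2 at 143 and 114 TPM. Casp1 stood at 98.8 and 71.6 TPM and Nlrp3 at 117 and 46.8 TPM, named after their values were seen. None of the 13 was past 2-fold, against 6.16% of genes, and at that share a list this short can hold none.

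Of 14 genes of receptor signalling, all were detected and none was past 2-fold, against 40.4% of protein-coding genes and 6.16% of genes. At the latter share a list this short can hold none. The list had a median of 16.1 TPM and a median relative log2 ratio of -0.16. The lowest, Tab1, had a mean of 2.32 TPM. The kinase gene Irak2 stood at 142 TPM in replicate 1 and 51.2 TPM in replicate 2 (relative log2 ratio -0.95), Tab2 at 110.2 and 74.8 TPM, and Ikbkb at 114 and 59.7 TPM. Irak2 passed 2-fold in the read-based table (-1.08, with Tab3 at -1.03) and without the filter (-1.15). By the ratio used above Tab3 was at -0.50, and under TMM at 0.22, so its direction depended on the setting. Of 8 regulators of Il1b RNA, all were detected and none was past 2-fold, beside the same shares over all genes. Their median was 34.3 TPM, with a median relative log2 ratio of -0.34. Nfkb1 stood at 382 and 164 TPM, Irf8 at 327 and 152 TPM, and Zfp36, whose product speeds the decay of cytokine RNA, at 115 and 81.7 TPM. The median of the 6 members, 0.44, was thus above that of these lists, and no test of that difference was made.

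**Figure D5:**
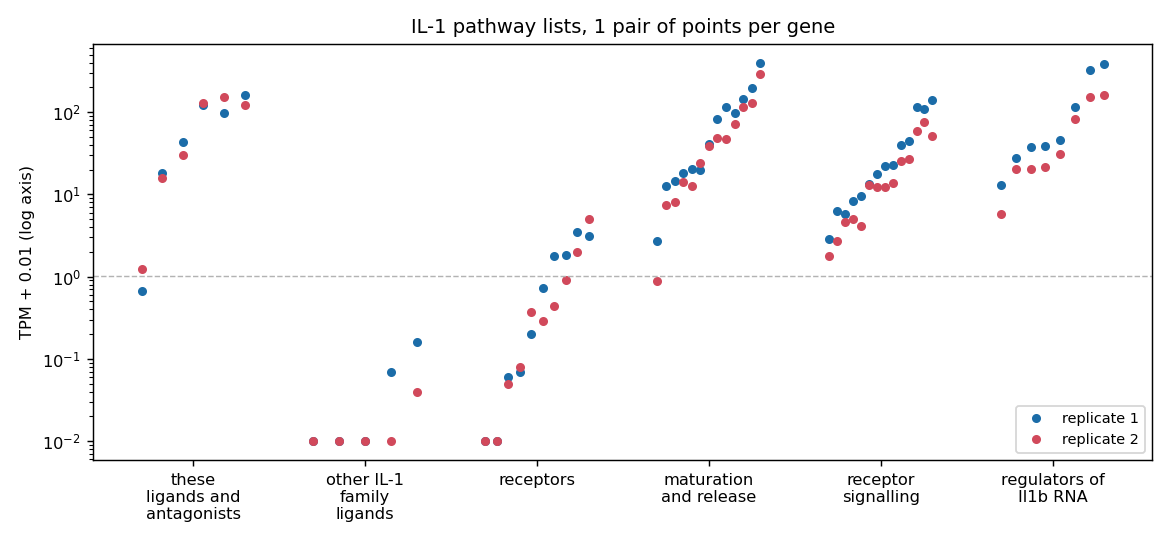
TPM + 0.01 (log axis) of every gene in the member set and the 5 pathway lists, ordered by mean within each list, with replicates 1 and 2 as a pair of points; the dashed line is 1 TPM. Further ligands and most receptors lie below the line in at least 1 library, while all signalling and regulator genes lie above it in both.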

How the data were processed

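Per the labels and the notes deposited with the files, gene-level and transcript-level tables of each library rest on alignment to the transcriptome, and another transcript-level table rests on the reads (read-based), with mm10 and GENCODE M21. Tools and strand use: not given in the sources used here. RSEM and kallisto write columns of these names. The deposited expected counts, per the file headers, are estimates and can be fractional. The deposited TPM values are scaled to 1 total over all entries, per the file headers, and the deposited FPKM values served as an alternative. The deposited percent of a gene's TPM per transcript was recomputed as a share. The authors' posterior mean TPM and its bounds, deposited as a score on the TPM scale, carry a prior.

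The gene tables held 14374739 and 16372797 counts in replicates 1 and 2, and read-based counts summed to 21039284 and 27514005. Entries without a gene name (26345 of 81881) took 1.41% and 0.245% of gene-table counts and were left out. Detection was 1 TPM in both libraries. Ratios used a pseudocount of 1 and genes with 10 or more counts in both, and were checked on simulated data. The simulation gave both libraries the same mean counts and lengths, counting error only, and changes larger than 2-fold. It therefore does not bear on calls near 2-fold or on differences in composition between these libraries. TMM (edgeR 4.0.16) and DESeq2 1.42.0 size factors, in R 4.3.3, used counts rounded to whole numbers as alternative scalings. Python 3.11.15 ran the rest, with numpy 2.4.6, pandas 2.3.3, matplotlib 3.10.9 and scipy 1.17.1. With 1 group no p-value was computed.

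Named are all members, their transcripts at 10% or more of the gene's TPM in any library and table, the 3 highest genes of each pathway list with any past 2-fold, the 2 nearest genes per member, and overlapping and neighbouring genes. The members and lists were chosen with earlier results of these data known. Promoters are RefSeq's and transcripts GENCODE's.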

Additional observations from a re-analysis of the deposited data

How the results depend on the processing

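No paired analysis was possible because the series holds 1 group. The number of members detected in both libraries was 5, and 5 or 6 under every alternative, with Il33 the gene that entered (6 without replicate 1, 5 without replicate 2). The posterior mean, added after seeing the data, gave 6. The number of members more than 2-fold apart was 1. It was 2 (Il1rn and Il33) with TMM scaling, 2 with DESeq2 size factors, 2 with TPM over nuclear-encoded protein-coding genes and 2 with a pseudocount of 0.1. It was 0 in the read-based table and 0 without a filter on low counts. Each setting also moved the share of all genes past 2-fold, from 6.16% to between 5.29% (read-based) and 12.1% (pseudocount of 0.1). Of the other results, alternatives left 69 values within the replicate SD or counting interval and moved 32, of which 23 were log2 ratios. Leaving out a library could not move a level or a share, because each of 2 values lies within their SD of the mean. Those settings are among the 69 and say nothing about stability. Among shares, 4 moved, all in the read-based table. Of members and pathway genes, Il1rn and Il1rap were past 2-fold by the ratio used above, and neither changed sign. Tab3, past 2-fold only in the read-based table (-1.03), did change sign, with 0.22 under TMM. The settings for Il1rap and the pathway lists were also added after seeing the data. Depth limits Il33 most, at 21 and 60 counts, and with 2 libraries an SD is itself imprecise.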
